A study of Mus musculus with 14 samples.

Results

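Il21, Pou2af1, Ascl2, Maf, Il6ra, Il6st, Icos, Cd40lg and Cd200 are 9 genes of the follicular helper T cell programme, followed here in CD8+ T cells from mouse tumors. They were taken by their symbols and are 9 of the 19959 gene symbols listed in the 3 tables of the series. The table of the Prdm1 experiment listed all 9 among 19825 genes. The table of the tumor-infiltrating lymphocytes (TILs) listed 8 among 15319 genes and that of the Bcl6 experiment 8 among 15216 genes. Ascl2 had no row in either of these tables, in which the smallest summed count of a gene was 20.

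RNA was sequenced in 14 libraries, 2 for each of 7 groups, from E.G7 tumors, an ovalbumin-expressing mouse lymphoma of the EL4 line. In the TIL experiment the tumors grew under the skin of Bcl6-RFP mice, in which a red fluorescent protein reports Bcl6. CD8+ TILs were sorted on day 21 after inoculation into Bcl6+, TIM-3+ and DN cells, a name left unexplained in the labels. In the other experiments, Prdm1-overexpressing or Bcl6-overexpressing OT-I cells and their controls were transferred together and sorted from E.G7 tumors about 8 days later. OT-I cells carry a transgenic T cell receptor that sees an ovalbumin peptide. The labels name the controls only as Prdm1neg and Bcl6neg, and give neither the vector nor the promoter behind either overexpression. They do not say whether libraries of a group came from separate mice, or whether overexpressing and control libraries with the same number came from the same mice, and the libraries were tested unpaired. So every p-value below sets a difference between groups against the spread between these libraries, which may be technical.

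Follicular helper cells are CD4+ T cells that enter B cell follicles and help germinal centre B cells. Their fate is set by Bcl6 against Prdm1 (Blimp-1), with Ascl2 and Maf as further transcription factors, and is promoted by IL-6, IL-21 and ICOS signals. The cells in turn give B cells IL-21 and CD40 ligand, and carry CD200 and the octamer coactivator Pou2af1. In chronic infection and tumors, a Tcf7-expressing, stem-like set of CD8+ T cells shares part of this programme, including Bcl6 and Cxcr5.

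The promoters of Pou2af1 and Cd200 are shown because these genes were the members higher in Bcl6+ TILs than in both other TIL populations. RefSeq promoters of build GRCm38.p6 matched 6 of the 9 members, Icos, Maf and Cd40lg being the others. Each line gives the 250 bases before the RefSeq start, 5′ to 3′ on the gene's own strand. Pou2af1 lies at chr9:51213440-51213689 on the plus strand. Its capitals mark the octamer core TGCAAAT, 231 to 225 bases before the start, and the CREB and ATF motif TGACGT, 61 to 56 bases before it. Cd200 lies at chr16:45409054-45409303 on the minus strand. Its capitals mark ACGTCA, the reverse complement of TGACGT, 201 to 196 bases before the start, and CTTTCAC, the reverse complement of the Blimp-1 motif GTGAAAG, 80 to 74 bases before it.
Pou2af1: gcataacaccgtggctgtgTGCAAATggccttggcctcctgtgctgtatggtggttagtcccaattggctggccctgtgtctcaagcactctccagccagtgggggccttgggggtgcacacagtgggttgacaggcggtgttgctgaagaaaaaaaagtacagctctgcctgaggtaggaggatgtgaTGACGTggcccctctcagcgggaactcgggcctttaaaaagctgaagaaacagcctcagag
Cd200: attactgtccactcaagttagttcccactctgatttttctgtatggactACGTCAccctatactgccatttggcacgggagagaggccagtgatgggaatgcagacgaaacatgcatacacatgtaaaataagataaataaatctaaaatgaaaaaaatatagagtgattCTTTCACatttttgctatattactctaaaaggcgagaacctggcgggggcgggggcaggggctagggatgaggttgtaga

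On either strand, 3.56% of 32851 promoters of this length held TGCAAAT, 6.47% held TGACGT and 3.57% held GTGAAAG. Among the 6 member promoters, TGCAAAT was found in that of Pou2af1, GTGAAAG in that of Cd200 and TGACGT in both. Another 4 motifs were searched: the STAT motif TTCNNNGAA, the TCF-1 motif CTTTGA, the E-box CAGCTG and the AP-1 motif TGANTCA. They occurred in 7.02%, 13.8%, 13% and 6.75% of all promoters, and their letters were in none of the 6 member windows. The motifs searched do not overlap in these windows, and a match describes the letters only.

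Library totals ran between 18309162 and 22322079 counts. The 6 CD8 T cell markers (Cd3d, Cd3e, Cd3g, Cd247, Cd8a and Cd8b1) lay between 46.7 and 918 FPKM in TILs, 70.7 and 289 FPKM in the Prdm1 experiment and 66.4 and 691 FPKM in the Bcl6 experiment. FPKM is the deposited level, scaled to gene length and library size. Bcl6 read 59.8 and 56.9 FPKM in Bcl6+ TILs, 2.16 and 2.65 FPKM in TIM-3+ TILs and 12.7 and 13.4 FPKM in DN TILs. It read 13.9 and 9.95 FPKM in Bcl6-overexpressing cells, against 0.573 and 0.53 FPKM in their controls (log2 fold change 4.34, SE 0.26, edgeR adjusted p = 2.0e-11). Prdm1 read 25.2 and 33.3 FPKM in Prdm1-overexpressing cells, against 19.4 and 16.1 FPKM in their controls. That 1.76-fold difference missed the threshold (log2 fold change 0.81, SE 0.19, edgeR adjusted p = 0.092). Bcl6 in the Prdm1 experiment read 2.65 and 2.94 FPKM in overexpressing cells and 1.14 and 1.33 FPKM in control cells, again without passing (adjusted p = 0.089).

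The Bcl6-overexpressing libraries stood apart from their controls in composition. Transcripts of 80 ribosomal protein genes held 4.71% and 4.25% of counts in overexpressing and 0.845% and 0.73% in control libraries, with a median log2 fold change of 3.63 over the 78 tested. The predicted gene Gm10800 had 175 and 146 counts in overexpressing and 31991 and 30084 counts in control libraries, and S100a8, a neutrophil gene, 262 and 368 counts against 0 and 0. With the genes tested split into 5 equal classes by the length that count and FPKM imply, the shortest class had a median log2 fold change of 0.66, and the medians of the others lay between -0.15 and -0.01. In the other 4 comparisons the medians of all classes lay between -0.10 and 0.07. These genes and classes were chosen after their values were seen.

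Counts were tested with edgeR's quasi-likelihood test at an adjusted p of 0.05, over all genes whose mean reached 1 FPKM in the experiment. Il6st, Icos, Cd40lg and Cd200 passed this filter in all 3 experiments, and Pou2af1 in the TIL and Bcl6 experiments. Il21, Maf and Il6ra passed in none, Ascl2 did not pass in the Prdm1 table, and Pou2af1 did not pass there. In Bcl6+ against TIM-3+ TILs, 3 of the 5 members tested were called, 2 higher and 1 lower, where 38.6% of 9748 genes were called, 19.1% higher and 19.6% lower. In Bcl6+ against DN TILs, 3 of 5 were called, 2 higher and 1 lower, with 14.2% of all genes called, 6.49% higher and 7.69% lower. In TIM-3+ against DN TILs, 4 of 5 were called, 1 higher and 3 lower, with 28.2% of all genes called, 14.9% higher and 13.2% lower. These 3 comparisons share libraries. Prdm1-overexpressing cells had 0 of 4 members called by edgeR, with 1.36% of 9947 genes called, 1.16% higher and 0.201% lower. At an unadjusted p under 0.05, 1910 genes of that comparison passed, and DESeq2 called 586 genes (5.89%) at its adjusted threshold, Cd200 among them. More genes, Cd200 included, were called when same-numbered libraries were taken as pairs. Without replicate 1 or 2 of the Prdm1 controls edgeR called 5 and 3 genes, and without replicate 1 of the overexpressing cells 784, so the number of calls in that experiment depends on single libraries. Bcl6-overexpressing cells had 2 of 5 called, 1 higher and 1 lower, with 48.8% of 9669 genes called, 25.4% higher and 23.4% lower. With total counts in place of TMM, the share of called genes that were higher was 69.9% in place of 49.3% in Bcl6+ over TIM-3+ TILs, 28% in place of 53% in TIM-3+ over DN TILs and 59.2% in place of 85.2% in Prdm1-overexpressing cells, where DESeq2 gave 60.4%. The members' median log2 fold changes were -0.23, -0.07, -0.36, 0.12 and -0.13 in these 5 comparisons, against 0.01, 0, -0.01, 0.02 and 0 over all genes tested.

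**Figure D1:**
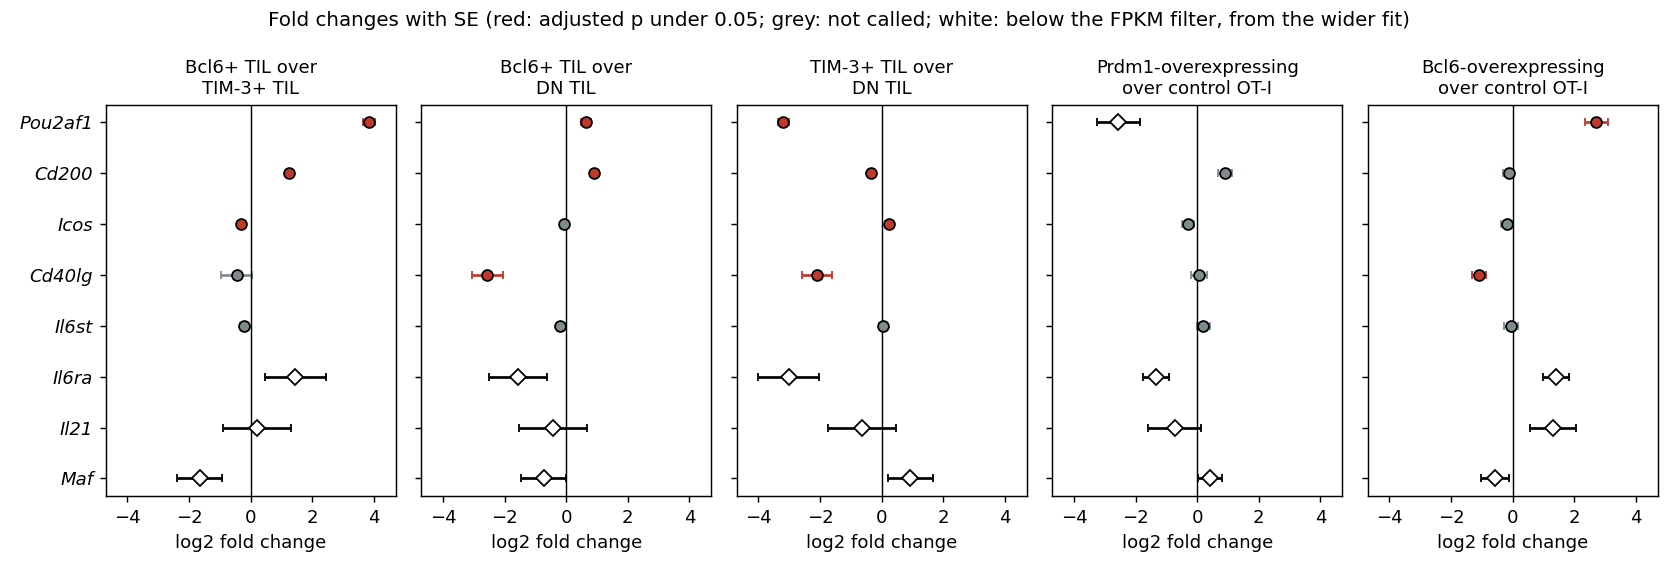
Log2 fold changes of 8 members with their SE in the 5 comparisons, the first group of each panel title over the second. Red points passed an adjusted p of 0.05, grey points did not, and white diamonds are members below the FPKM filter, taken from a fit with edgeR's own count filter; Pou2af1 lies farthest right in Bcl6+ over TIM-3+ TILs (3.84) and in Bcl6-overexpressing cells (2.72).

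Pou2af1, which binds the octamer factors Oct1 and Oct2 on DNA and is best known from B cells, showed the widest range among the members tested. The gene is protein-coding and spans chr9:51213708-51240080 on the plus strand of mm10 (ENSMUSG00000032053). It read 28.4 and 23.8 FPKM in Bcl6+ TILs, 1.82 and 1.97 FPKM in TIM-3+ TILs and 17.6 and 16.0 FPKM in DN TILs. The 3 populations did not overlap, with Bcl6+ cells above DN cells and TIM-3+ cells far below both. Pou2af1 was 14.4-fold higher in Bcl6+ than in TIM-3+ TILs (log2 fold change 3.84, SE 0.20, edgeR adjusted p = 3.0e-09). It was lower in TIM-3+ than in DN TILs (log2 fold change -3.19, SE 0.19, edgeR adjusted p = 4.0e-08). Between Bcl6+ and DN TILs the difference was smaller (log2 fold change 0.65, SE 0.17, edgeR adjusted p = 0.017). That call was lost without replicate 1 of Bcl6+ (adjusted p = 0.13), replicate 1 of DN (0.082) or replicate 2 of DN (0.17).

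In Bcl6-overexpressing OT-I cells Pou2af1 read 5.73 and 6.05 FPKM, against 1.09 and 0.602 FPKM in control cells. Both overexpressing libraries lay above both control libraries, a 6.57-fold difference (log2 fold change 2.72, SE 0.38, edgeR adjusted p = 7.0e-06). The gene passed the FPKM filter through the overexpressing cells, with a mean of 5.89 FPKM against 0.845 FPKM in control cells. With edgeR's own count filter the log2 fold change was 2.81 (SE 0.38, adjusted p = 4.4e-05), where 45.5% of 13996 genes were called. Pou2af1 lay in the second shortest class of genes, whose median was -0.01. The part of the composition of these libraries in this difference was not tested. In the Prdm1 experiment the gene had 8 and 15 counts in overexpressing cells, against 79 and 59 counts in control cells. These groups did not overlap either, and in levels they stood at 0.165 and 0.310 FPKM against 1.63 and 1.16 FPKM. The mean over the 4 libraries was 0.816 FPKM, under the filter, and a fit with edgeR's own count filter gave a log2 fold change of -2.56 (SE 0.69, adjusted p = 0.15), with 0.307% of 16270 genes called. In these bulk libraries, fewer cells that express a gene and less of its RNA per cell cannot be told apart.

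Because Pou2af1 is abundant in B cells, markers of other cells were read beside it. In every TIL library Ms4a1, Cd79a and Pax5 lay between 0 and 0.519 FPKM. The 10 B cell markers summed to 3.67 to 4.29 FPKM in Bcl6+, 0.998 to 1.20 FPKM in TIM-3+ and 8.92 to 9.29 FPKM in DN TILs. Fcer2a was at 0 in both Bcl6+ libraries and Cd79b at 0 in both TIM-3+ libraries. The largest part of the DN sum was Spib, a factor of B and plasmacytoid dendritic cells, at 5.07 and 5.0 FPKM. Spib read 1.58 and 1.53 FPKM in Bcl6+ and 0 and 0.350 FPKM in TIM-3+ TILs. Siglech, a plasmacytoid dendritic cell marker, read 0.829 and 1.07 FPKM in Bcl6+, 0.0142 and 0.735 FPKM in TIM-3+ and 5.89 and 5.11 FPKM in DN TILs. Spib and Siglech were highest in DN TILs and Pou2af1 in Bcl6+ TILs, and each had its lowest values in TIM-3+ TILs. The 1 B cell marker tested was higher in Bcl6+ than in TIM-3+ TILs (log2 fold change 3.2) and lower in TIM-3+ than in DN TILs (-4.88). Between Bcl6+ and DN TILs it was not called (-1.68). The 11 macrophage and monocyte markers ranked the groups as Pou2af1 did in all 3 experiments. They summed to 178 to 200 FPKM in Bcl6+, 37.2 to 48.9 FPKM in TIM-3+ and 106 to 110 FPKM in DN TILs. The sums were 475 to 558 FPKM in Bcl6-overexpressing cells against 97.0 to 104 FPKM in their controls, and 106 to 198 FPKM in Prdm1-overexpressing cells against 314 to 361 FPKM in their controls. Lymphoma and thymocyte markers summed to 7.24 to 9.76 FPKM in Bcl6+, 1.04 to 2.07 FPKM in TIM-3+ and 7.41 to 8.22 FPKM in DN TILs. The part of these cell types in the Pou2af1 differences was not tested. In the Bcl6 experiment the B cell markers summed to 3.59 to 5.08 FPKM in overexpressing and 4.52 to 5.72 FPKM in control cells, with Spib at 0 in both overexpressing libraries.

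Maf, a transcription factor that drives Il21 and Il10 in T cells, was low throughout. It had 21 and 38 counts in Bcl6+, 54 and 119 counts in TIM-3+ and 32 and 65 counts in DN TILs, all at or below 0.69 FPKM. TIM-3+ libraries lay above both Bcl6+ libraries and overlapped the DN libraries. With edgeR's own count filter the log2 fold change of Bcl6+ over TIM-3+ TILs was -1.66 (SE 0.73, adjusted p = 0.12). Maf had 145 and 142 counts in Prdm1-overexpressing cells and 128 and 89 counts in their controls (adjusted p = 0.67 with that filter). In the Bcl6 experiment it had 73 and 67 counts in overexpressing cells and 105 and 108 counts in control cells (adjusted p = 0.33). Neither pair of groups overlapped. Ascl2, the helix-loop-helix factor that induces Cxcr5 in CD4+ T cells, had 4 and 5 counts in Prdm1-overexpressing cells and 0 and 7 counts in their controls. A count of 0 in that control library allows up to 3 counts, or 0.164 CPM (counts scaled to library size), for counting error alone, so a difference was not detectable at this depth.

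Il21, the cytokine that follicular helper cells give to B cells, was also near the limit of these libraries. It had 39 and 23 counts in Bcl6+, 7 and 43 counts in TIM-3+ and 19 and 65 counts in DN TILs, and the 3 populations overlapped. Adjusted p-values with edgeR's own count filter were 0.92, 0.90 and 0.75 for Bcl6+ over TIM-3+, Bcl6+ over DN and TIM-3+ over DN. Prdm1-overexpressing cells had 18 and 11 counts of Il21 and their controls 24 and 25. Bcl6-overexpressing cells had 41 and 32 counts and their controls 18 and 12, without overlap (log2 fold change 1.31, SE 0.76, adjusted p = 0.18 with that filter). In levels per length, Il21 stayed at or below 0.546 FPKM in all 14 libraries. Il21r, the receptor chain for this cytokine, read 251 and 262 FPKM in Bcl6+, 173 and 183 FPKM in TIM-3+ and 135 and 133 FPKM in DN TILs. All 3 TIL populations differed in Il21r (edgeR adjusted p = 2.0e-06 for Bcl6+ over TIM-3+, 1.0e-07 for Bcl6+ over DN and 0.00034 for TIM-3+ over DN).

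**Figure D2:**
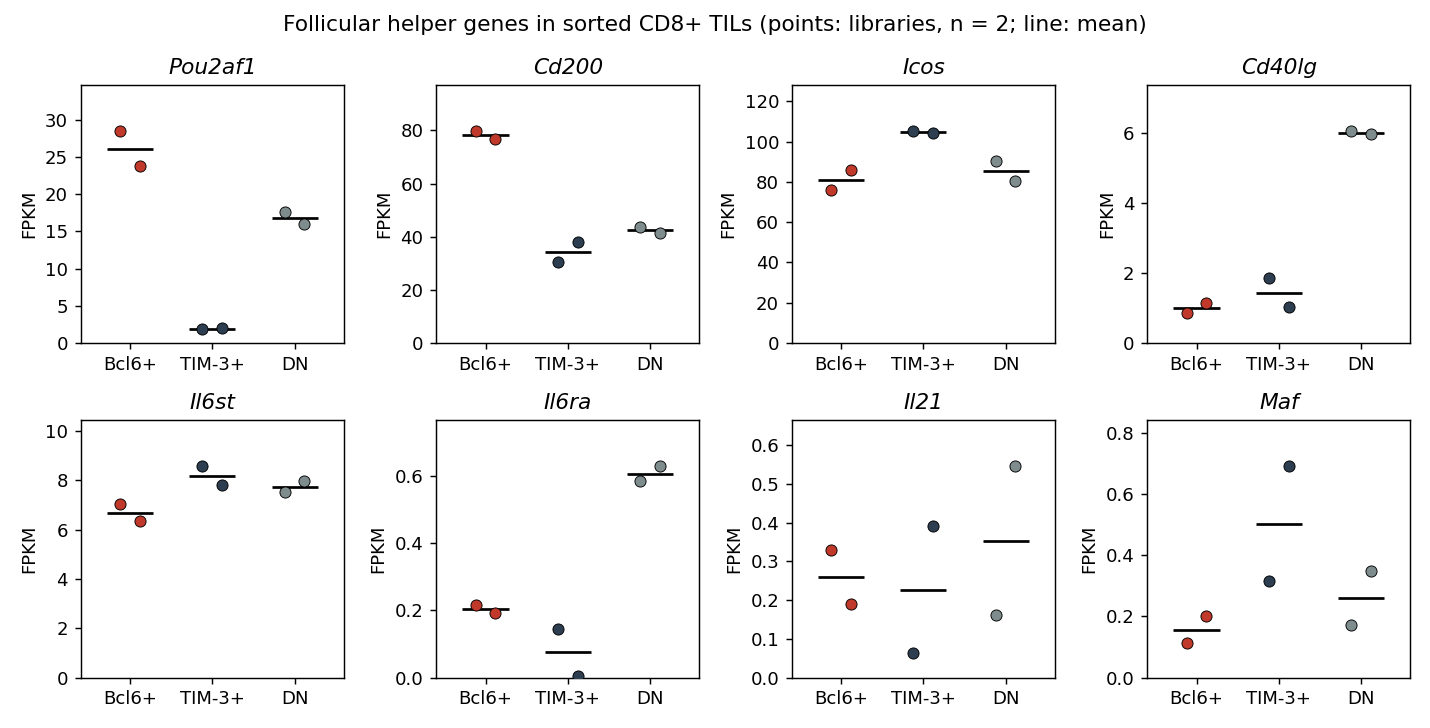
FPKM of 8 members in Bcl6+, TIM-3+ and DN TILs, with points for the 2 libraries of a group and a line for their mean. Pou2af1 and Cd200 are highest in Bcl6+ cells, Icos in TIM-3+ cells and Cd40lg in DN cells, while Il6ra, Il21 and Maf lie at or below 0.69 FPKM.

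Il6ra encodes the chain that binds IL-6, and Il6st encodes gp130, the signalling chain shared by the IL-6 cytokine family. Il6st read 7.03 and 6.36 FPKM in Bcl6+, 8.57 and 7.80 FPKM in TIM-3+ and 7.51 and 7.96 FPKM in DN TILs. It read 3.83 and 4.68 FPKM in Prdm1-overexpressing cells and 3.56 and 4.43 FPKM in their controls, and 3.56 and 2.83 FPKM in Bcl6-overexpressing cells and 3.41 and 2.83 FPKM in their controls. Il6st was called in none of the 5 comparisons. Its log2 fold changes ran from -0.23 (SE 0.12, edgeR adjusted p = 0.15) in Bcl6+ over TIM-3+ TILs to 0.19 (SE 0.21, adjusted p = 0.68) in Prdm1-overexpressing over control cells.

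Il6ra lay under the filter in every experiment. It read 0.216 and 0.192 FPKM in Bcl6+, 0.144 and 0.00553 FPKM in TIM-3+ and 0.583 and 0.628 FPKM in DN TILs. DN cells had 113 and 123 counts and lay above both other populations, and the TIM-3+ libraries had 26 and 1 counts. TIM-3+ over DN gave a log2 fold change of -3.02 (SE 1.0, adjusted p = 0.057) with edgeR's own count filter and an adjusted p of 0.047 with no filter, where 20.2% and 18.2% of all genes were called. In the OT-I experiments the groups did not overlap. Il6ra had 77 and 46 counts in Prdm1-overexpressing cells, against 153 and 162 counts in their controls (log2 fold change -1.34, SE 0.43, adjusted p = 0.20 with edgeR's own count filter). It had 128 and 240 counts in Bcl6-overexpressing cells, against 67 and 72 counts in their controls. The Bcl6 difference passed with that filter (log2 fold change 1.42, SE 0.42, adjusted p = 0.013), where 45.5% of 13996 genes did. Myeloid cells also carry the IL-6 receptor, and the macrophage and monocyte markers ranked the groups of both OT-I experiments as Il6ra did. In TILs their order, highest in Bcl6+ cells, differs from that of Il6ra. Their part in the Il6ra values was not tested.

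Icos, the costimulatory receptor that sustains follicular helper cells, was among the highest members per length in every library. It lies at chr1:60977927-61000320 on the plus strand of mm10 (ENSMUSG00000026009). It read 75.9 and 86.1 FPKM in Bcl6+, 105 and 104 FPKM in TIM-3+ and 90.6 and 80.6 FPKM in DN TILs. TIM-3+ libraries lay above the rest, and Bcl6+ and DN libraries overlapped. Icos was lower in Bcl6+ than in TIM-3+ TILs by a small amount (log2 fold change -0.31, SE 0.083, edgeR adjusted p = 0.0093). It was higher in TIM-3+ than in DN TILs (log2 fold change 0.24, SE 0.083, edgeR adjusted p = 0.043), and Bcl6+ did not differ from DN at the threshold (-0.07, adjusted p = 0.69). Both calls depend on the scaling: with total counts in place of TMM the log2 fold changes were -0.12 (adjusted p = 0.26) and 0.07 (adjusted p = 0.53). That scaling moved the median of all genes to 0.20 in Bcl6+ over TIM-3+ and to -0.18 in TIM-3+ over DN. The call against TIM-3+ was also lost without replicate 1 of Bcl6+ (adjusted p = 0.073). That of TIM-3+ over DN was lost without replicate 2 of DN (0.34) or either TIM-3+ library (0.12 and 0.10). Of the 6 CD8 T cell markers, 6 were lower in Bcl6+ than in TIM-3+ TILs and 5 higher in TIM-3+ than in DN TILs, the list summing to 2760 to 2820 FPKM there, against 1590 to 1610 FPKM in Bcl6+ and 1900 to 1910 FPKM in DN TILs. Their part in the Icos difference was not tested.

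In OT-I cells Icos read 73.8 and 55.8 FPKM in Prdm1-overexpressing cells, against 89.7 and 80.7 FPKM in their controls. The groups did not overlap in deposited FPKM but did in TMM-scaled CPM, the scale of the test, at 284 and 202 CPM against 314 and 279 CPM. The difference missed the threshold (log2 fold change -0.29, SE 0.20, edgeR adjusted p = 0.49). In the Bcl6 experiment it read 60.3 and 77.8 FPKM in overexpressing and 77.9 and 71.3 FPKM in control cells, with overlap (log2 fold change -0.20, SE 0.17, adjusted p = 0.36). Without replicate 2 of the overexpressing cells that difference passed (-0.40, adjusted p = 0.023).

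Cd40lg, the ligand with which helper T cells engage CD40 on B cells, separated DN cells from the other TILs. It lies at chrX:57212143-57224042 on the plus strand of mm10 (ENSMUSG00000031132). It read 0.854 and 1.15 FPKM in Bcl6+, 1.84 and 1.03 FPKM in TIM-3+ and 6.03 and 5.97 FPKM in DN TILs. DN libraries had 169 counts each and lay above all others, and Bcl6+ and TIM-3+ libraries, with 24 to 48 counts, overlapped. Cd40lg was lower in Bcl6+ than in DN TILs (log2 fold change -2.56, SE 0.51, edgeR adjusted p = 0.0033) and lower in TIM-3+ than in DN TILs (-2.10, SE 0.50, edgeR adjusted p = 0.0058). The TIM-3+ call missed the threshold without replicate 1 of DN (-2.09, adjusted p = 0.052). Between Bcl6+ and TIM-3+ TILs it did not differ at the threshold (-0.46, SE 0.51, adjusted p = 0.52). Cd4 was also highest in DN TILs, at 0.585 and 0.908 FPKM in Bcl6+, 0.690 and 0.593 FPKM in TIM-3+ and 2.66 and 2.32 FPKM in DN TILs. It was lower in Bcl6+ (log2 fold change -1.72, edgeR adjusted p = 0.014) and in TIM-3+ (-2.00, adjusted p = 0.0031) than in DN TILs. The 4 CD4 T cell markers listed summed to 9.43 to 9.94 FPKM in Bcl6+, 12.4 to 12.7 FPKM in TIM-3+ and 7.45 FPKM in both DN libraries. The part of CD4+ cells in the Cd40lg difference was not tested.

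Cd40lg stood higher per length in OT-I cells than in TILs, but the processing notes name different tools for these tables, which were normalized separately. It read 16.4 and 18.3 FPKM in Bcl6-overexpressing cells, against 36.6 and 32.8 FPKM in their controls. The groups did not overlap and the gene was 2.12-fold lower with Bcl6 overexpression (log2 fold change -1.09, SE 0.22, edgeR adjusted p = 4.0e-04). Cd40lg lay in the shortest class of genes, whose median was 0.66. The part of library composition and of the macrophage and monocyte markers, which were higher in overexpressing cells, was not tested. Cd4 was at most 0.589 FPKM in these libraries. The 4 CD4 T cell markers summed to 7.35 to 7.71 FPKM in overexpressing and 3.0 to 5.03 FPKM in control cells. Most of these sums came from genes other than Cd4. The part of CD4+ cells in the Cd40lg difference of these cells was not tested. In the Prdm1 experiment Cd40lg read 30.0 and 28.2 FPKM in overexpressing cells and 24.0 and 36.0 FPKM in control cells, with overlap (log2 fold change 0.06, SE 0.26, adjusted p = 0.92).

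**Figure D3:**
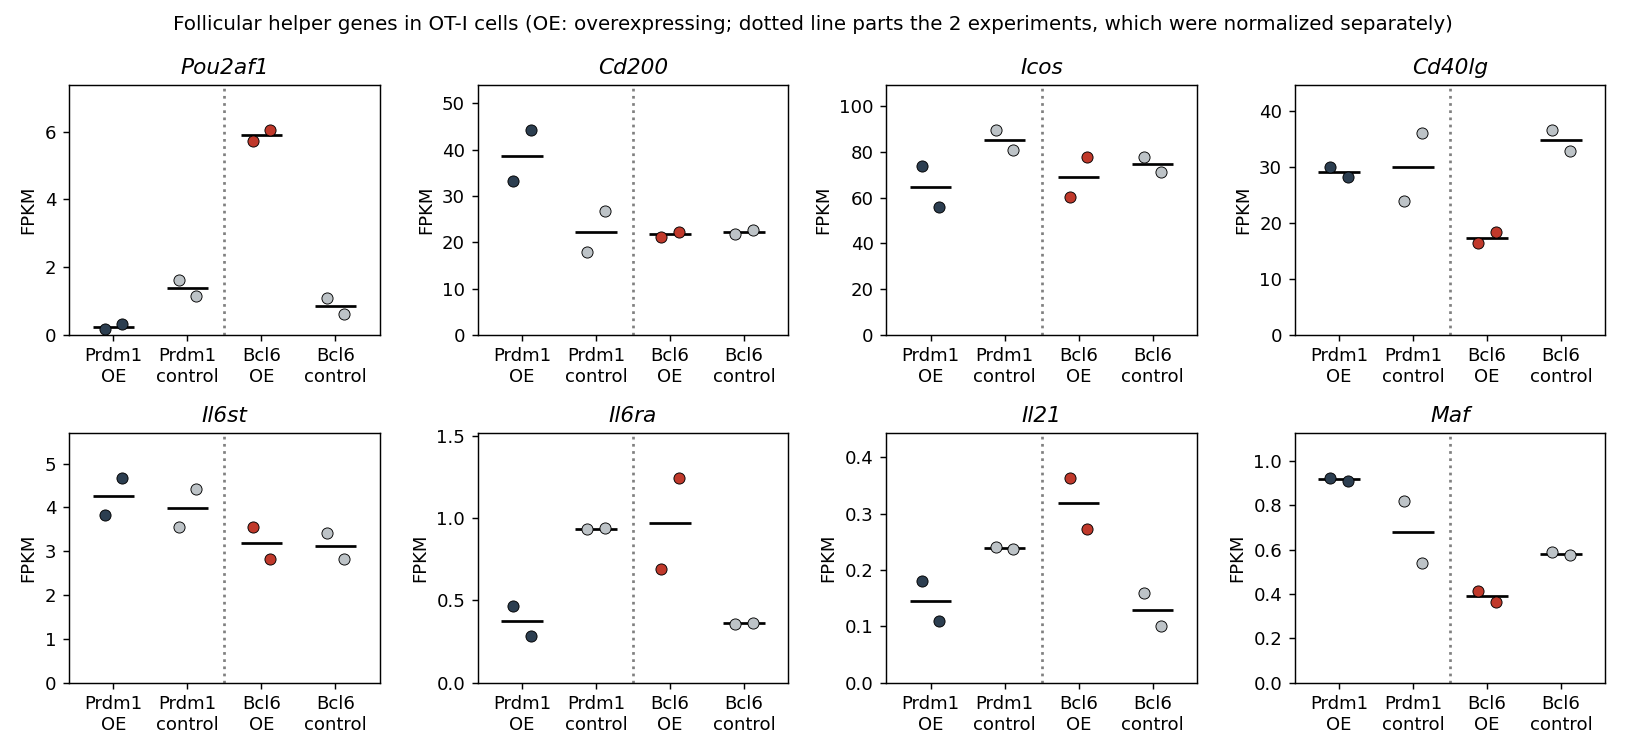
FPKM of 8 members in OT-I cells, with points for the 2 libraries of a group and a line for their mean; a dotted line parts the Prdm1 and Bcl6 experiments, which were normalized separately. Pou2af1 is higher and Cd40lg lower in Bcl6-overexpressing cells than in their controls, and Cd200 does not overlap between Prdm1-overexpressing and control cells.

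Cd200 is a surface glycoprotein that engages the receptor Cd200r1, mostly on myeloid cells, and is high on follicular helper cells. Its gene lies at chr16:45382135-45409053 on the minus strand of mm10 (ENSMUSG00000022661). It read 79.6 and 76.8 FPKM in Bcl6+, 30.6 and 37.9 FPKM in TIM-3+ and 43.6 and 41.3 FPKM in DN TILs. The 3 populations did not overlap. Cd200 was higher in Bcl6+ than in TIM-3+ TILs (log2 fold change 1.25, SE 0.10, edgeR adjusted p = 4.0e-07) and higher in Bcl6+ than in DN TILs (0.90, SE 0.10, adjusted p = 4.1e-05). The macrophage and monocyte markers ranked these populations as Cd200 did. In OT-I cells they summed higher with Bcl6 overexpression, where the log2 fold change of Cd200 was -0.13. With Prdm1 overexpression they summed lower, and that of Cd200 was 0.90. Their part in the Cd200 differences was not tested. TIM-3+ cells were lower than DN cells in Cd200 by less (-0.36, SE 0.10, adjusted p = 0.02), a call lost without replicate 1 of DN (0.15), replicate 2 of DN (0.064) or replicate 1 of TIM-3+ (0.19).

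Cd200 was not called in either OT-I experiment by edgeR. It read 21.2 and 22.2 FPKM in Bcl6-overexpressing cells and 21.9 and 22.7 FPKM in their controls, with overlap. In TMM-scaled CPM the groups did not overlap, at 71.2 and 74.8 CPM against 77.8 and 81.5 CPM, and the difference missed the threshold (log2 fold change -0.13, SE 0.18, edgeR adjusted p = 0.60). The ratio of deposited FPKM to scaling by total count was set to 1 in replicate 1 of these controls. It then stood at 1.09 and 1.07 in the overexpressing libraries and at 0.962 in replicate 2 of the controls. In the Prdm1 experiment Cd200 read 33.2 and 44.2 FPKM in overexpressing cells, against 17.8 and 26.7 FPKM in their controls. Both overexpressing libraries lay above both controls, and the difference missed the threshold (log2 fold change 0.90, SE 0.23, adjusted p = 0.12). It passed with DESeq2 (0.85, adjusted p = 0.039) and without replicate 1 of the overexpressing cells (1.04, adjusted p = 0.012). It also passed when same-numbered libraries were taken as pairs, which the labels leave unsaid.

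Icos and Cd200 made up most of the members' summed FPKM, between 79.5% and 92.3% per library in TILs, 71.1% and 77.5% in the Prdm1 experiment and 70.3% and 77.5% in the Bcl6 experiment. Il6st, Icos, Cd40lg and Cd200, which passed the filter in all 3 experiments, did not move as a block. Over the 14 libraries, log2(CPM + 1) was centred within each experiment. Between these members Pearson r ran from -0.625 (Icos with Cd200) to 0.318 (Il6st with Cd40lg), and that of Icos with Cd40lg was 0.069. Pou2af1 and the remaining members did not enter these values. The libraries of an experiment share groups, so these values only describe them. Of 8793 other genes searched, the patterns nearest to Icos were those of Hprt (r = 0.949) and Hpf1 (0.937), and nearest to Cd200 were Plk2 and Nek7 (0.921 each). Nearest to Cd40lg were the interferon-induced genes Ifit3 (0.933) and Ifit3b (0.924), whose close sequences may share reads. Il6st was nearest to Armc10 (0.830) and Ap3m2 (0.803).

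For the list counts here and below, the shares of all genes called in each comparison are those given above. The Bcl6-overexpressing libraries differed from their controls in composition and in macrophage and monocyte markers, as described above. The part of these differences in the values of this list and those below was not tested. Among 20 further follicular helper genes, 19 were tested in TILs. Bcl6 is on this list. Its reporter marked the Bcl6+ TILs and it was the gene overexpressed in the Bcl6 experiment. Its calls for these groups follow from the design. In Bcl6+ against TIM-3+ TILs 11 were higher and 6 lower. Among the higher genes, Cxcr5, the follicle-homing receptor, stood at 7.09 and Bcl6 at 4.66. Tcf7, a factor of stem-like T cells, stood at 4.42 and Slamf6 at 4.25. Each of these had an edgeR adjusted p of 5.4e-11 or lower. For this comparison none of the lower genes is named. In Bcl6+ against DN TILs 10 were higher and 2 lower, among them Cxcr5 (2.22, adjusted p = 4.5e-07), Tigit (0.50, adjusted p = 1.2e-05) and Irf4 (-1.17, adjusted p = 3.1e-05). In TIM-3+ against DN TILs 6 were higher and 10 lower, with Tcf7 at -3.69 (adjusted p = 7.6e-11) and Tnfsf8 at -4.21 (adjusted p = 7.7e-10). In Prdm1-overexpressing cells 0 of 17 were higher and 2 lower, Tcf7 (-2.39, SE 0.19, adjusted p = 0.0059) and Slamf6 (-1.31, SE 0.17, adjusted p = 0.022). In Bcl6-overexpressing cells 9 of 18 were higher and 3 lower, with Bcl6, Cxcr5 (4.10, adjusted p = 5.6e-10), Id3 (3.74, adjusted p = 3.1e-10) and Tcf7 (1.81, adjusted p = 2.4e-08) leading. Cxcr5 read 11.4 and 10.1 FPKM in Bcl6-overexpressing cells, against 0.652 and 0.526 FPKM in their controls. The list's median log2 fold changes were 0.66, 0.48, -0.50, -0.29 and 0.40 in these 5 comparisons, where the medians over all genes lay between -0.01 and 0.02. In summed FPKM the list stood at 3170 to 3240 in Bcl6+, 3360 to 3440 in TIM-3+ and 2410 to 2530 in DN TILs. It summed to 1720 to 1860 FPKM in Bcl6-overexpressing cells and 2080 FPKM in their controls. The sums were 1830 to 1860 FPKM in Prdm1-overexpressing cells and 1890 to 1980 FPKM in their controls.

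All 14 genes on the list that opposes the programme were tested. Against TIM-3+ TILs, Bcl6+ TILs had 7 higher and 6 lower. Ccr7, a lymph node homing receptor, was higher (4.01, edgeR adjusted p = 5.2e-15), and Id2 (-2.25, adjusted p = 3.3e-12), Il2rb (-1.46, adjusted p = 2.2e-12) and Prdm1 (-3.61, adjusted p = 2.6e-11) were lower. In Bcl6+ against DN TILs 2 were higher and 6 lower, with Prdm1 at -1.93 (adjusted p = 6.0e-08) and S1pr1 at -2.16 (adjusted p = 1.2e-06). In TIM-3+ against DN TILs 5 were higher and 6 lower, with Ccr7 at -3.06 (adjusted p = 2.2e-13) and Il2rb at 1.03 (adjusted p = 2.9e-10). In Prdm1-overexpressing cells Il2ra, the high-affinity IL-2 receptor chain, was higher (1.02, adjusted p = 0.048) and Ccr7 lower (-0.97, adjusted p = 0.036). In Bcl6-overexpressing cells 4 were higher and 6 lower, with Klf2 at 2.23 (adjusted p = 9.8e-08) and Prdm1 at -1.36 (adjusted p = 1.1e-05). The list's medians in the 5 comparisons were 0.16, -0.33, -0.40, -0.27 and -0.16 on the log2 scale.

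Of the genes of IL-6 and IL-21 signalling, 15 were tested in TILs and 16 in each OT-I experiment. In Bcl6+ against TIM-3+ TILs 5 were higher, among them the kinase Jak2 (2.13, edgeR adjusted p = 1.9e-07), and 7 lower, among them Jak3 (-0.79, adjusted p = 5.2e-07). In Bcl6+ against DN TILs 4 were higher, with Il21r at 0.95 and Stat3, the main transducer of both cytokines, at 0.45 (adjusted p = 9.7e-06), and 2 lower. In TIM-3+ against DN TILs 7 were higher and 3 lower, with Socs3, a feedback inhibitor of gp130, at -0.97 (adjusted p = 7.7e-06). In Prdm1-overexpressing cells Adam10, a sheddase, was higher (0.93, adjusted p = 0.045) and Socs3 lower (-1.11, adjusted p = 0.046). In Bcl6-overexpressing cells 5 were higher and 5 lower, with the gp130 cytokine Lif at 2.93 (adjusted p = 1.8e-07) and Socs1 at 1.70 (adjusted p = 7.7e-07). The list's medians in the 5 comparisons were 0.04, -0.03, 0.20, -0.14 and 0.03 on the log2 scale.

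Of the partners of ICOS, CD40 ligand and CD200, 0 of 11 were higher and 7 lower in Bcl6-overexpressing cells. Among all genes tested there, 25.4% were higher and 23.4% lower. The part of the composition of these libraries in the list's values was not tested. The lower genes included Tbk1, a kinase recruited by ICOS (-1.29, edgeR adjusted p = 1.6e-05), and Rc3h1 (Roquin), which represses Icos RNA (-1.07, adjusted p = 0.00011). Cd200r4, a relative of the CD200 receptor whose reads may be shared with close copies, was also lower (-1.53, adjusted p = 0.00032). Bcl6+ TILs had 2 of 11 higher and 5 lower than TIM-3+ TILs, with Cd200r4 at -3.79 (adjusted p = 9.6e-08) and Tbk1 at -0.81 (adjusted p = 0.00013). In Bcl6+ against DN TILs 0 of 11 were higher and 3 lower, and in TIM-3+ against DN TILs 5 were higher and 1 lower. In Prdm1-overexpressing cells edgeR called 0 of 12. The list's median log2 fold change was -0.58 in Bcl6-overexpressing cells, and -0.03, -0.27, -0.04 and 0.06 in the other comparisons in the order given.

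Partners of Maf, Ascl2 and Pou2af1 numbered 7 tested in TILs. In Bcl6+ against TIM-3+ TILs 3 were higher, with the E protein Tcf12 at 1.62 (edgeR adjusted p = 6.9e-07), and 2 lower, Il10 and Nfil3 (-0.61, adjusted p = 8.5e-05). Il10 had 0 counts in both Bcl6+ libraries, against 78 and 64 counts in TIM-3+ and 62 and 39 counts in DN libraries. Set against 3 counts over the Bcl6+ group, it was at least 49.4-fold lower than in TIM-3+ and at least 33.7-fold lower than in DN TILs. In Bcl6+ against DN TILs 1 was higher and 1 lower, and in TIM-3+ against DN TILs 1 was higher and 2 lower. In Prdm1-overexpressing cells edgeR called 0 of 7. In Bcl6-overexpressing cells 3 of 8 were higher, Nfil3 (1.20, adjusted p = 1.5e-05), Maff (2.21, adjusted p = 4.4e-05) and Tcf3 (1.18, adjusted p = 5.8e-05), and 0 lower. The list's medians in the 5 comparisons were 0.34, 0.20, -0.26, -0.06 and 0.34 on the log2 scale, and those of the first and second are the same with Il10 at its bound.

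Pou2f2, which encodes the octamer factor Oct2 that Pou2af1 binds, ranked the TIL populations as Pou2af1 did. It had 1714 and 2268 counts in Bcl6+, 889 and 672 counts in TIM-3+ and 1171 and 1268 counts in DN TILs. It had 2237 and 1847 counts in Bcl6-overexpressing cells, against 666 and 776 counts in their controls. Pou2f2 was higher in Bcl6+ than in TIM-3+ TILs (log2 fold change 1.29, edgeR adjusted p = 4.0e-05) and than in DN TILs (0.71, adjusted p = 0.011), and higher with Bcl6 overexpression (1.44, adjusted p = 5.6e-06). In the Prdm1 experiment it read 2.39 and 2.07 FPKM in overexpressing and 3.14 and 2.02 FPKM in control cells, with overlap (adjusted p = 0.88). Pou2f1, which encodes Oct1, was not called in Bcl6-overexpressing cells (log2 fold change 0.06, edgeR adjusted p = 0.87). Nor was it called in Prdm1-overexpressing cells (-0.12, adjusted p = 0.87). The macrophage and monocyte markers ranked the groups of the TIL and Bcl6 experiments as Pou2f2 did. Their part, and that of library composition, in the Pou2f2 differences was not tested. Both octamer factor genes were named after their values were seen.

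Markers of other cells moved with some groups beyond the values given above. Of 8 macrophage and monocyte markers tested, 8 were higher in Bcl6-overexpressing than in control cells, with Apoe at 3.50 (edgeR adjusted p = 1.2e-11) and Lyz2 at 2.34 (adjusted p = 6.9e-10). Bcl6+ TILs had 7 of 7 higher than TIM-3+ TILs, and in Prdm1-overexpressing cells 0 of 8 were called. Dendritic cell markers summed to 8.68 to 12.1 FPKM in Bcl6+, 13.3 to 14.5 FPKM in TIM-3+ and 16.7 to 18.5 FPKM in DN TILs. They summed to 28.8 to 29.8 FPKM in Prdm1-overexpressing and 41.0 to 44.2 FPKM in control cells, and to 29.1 to 34.1 FPKM in Bcl6-overexpressing and 39.0 to 40.5 FPKM in control cells. Lymphoma and thymocyte markers summed to 2.78 FPKM or less in all OT-I libraries. Genes listed at 0 numbered 524 and 531 in Prdm1-overexpressing libraries and 1570 and 2177 in their controls, and 1900 and 2051 in Bcl6-overexpressing libraries and 95 and 69 in their controls. The part of these cells and of the genes at 0 in the members' differences was not tested.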

How the data were processed

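RNA-seq of 14 libraries was analysed. Per the file headers, the authors deposited a raw count and an FPKM value for each gene and library. Per the submitters' processing notes, TIL libraries involved Bowtie2, Subread, featureCounts, edgeR and DESeq2, and OT-I libraries HISAT2, featureCounts, RSEM and DESeq2, with build mm10. The sources used here give no versions, no roles and no word on strand. Deposited counts were whole numbers. The ratio of deposited FPKM to scaling by total count was set to 1 in replicate 1 of the Bcl6+ TILs. It was then 1.18 and 1.19 in the TIM-3+ TIL libraries.

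Deposited counts were tested with edgeR 4.0.16 (quasi-likelihood, TMM, R 4.3.3), two-sided, among genes whose mean reached 1 FPKM. There was 1 fit for the 6 TIL libraries and 1 for each OT-I experiment. Benjamini-Hochberg adjustment ran over all genes tested. SE was taken as the size of the log2 fold change divided by the root of F. Biological coefficients of variation were 0.149 (TIL), 0.227 (Prdm1) and 0.164 (Bcl6). DESeq2 1.42.0, limma 3.58.1, other filters, total-count scaling, a replicate block and leaving out each library were alternatives. Intervals and floors (3 counts) cover counting error only.

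The members, the gene lists and the marker lists (CD8 T cell, CD4 T cell, B cell, macrophage and monocyte, dendritic cell, lymphoma and thymocyte) were chosen with earlier results of these data known. Of the marker lists, 2 genes are not reported here and enter no sum. Named genes were the 9 members, Bcl6, Prdm1, up to 4 genes of each list with the smallest p in a comparison, and for each member of at least 1 FPKM in all 3 experiments the 2 genes with the highest Pearson r. Marker genes and other genes whose levels are given were chosen after their values were seen. Positions and overlaps came from GENCODE M21, in which no gene that overlaps a member was listed in the tables. Replicate libraries differed by more than sampling noise (chi-square per degree of freedom 12 to 79.4). The scripts were tested on simulated data.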

Additional observations from a re-analysis of the deposited data

How the results depend on the processing

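Of 309 members' log2 fold changes under alternatives, 272 kept their direction and side of the threshold, 14 lost their call, 4 gained one and 19 changed sign. The sign changes concerned members not called. With total counts in place of TMM, Il6st gave -0.13 in TIM-3+ over DN TILs and Cd40lg -0.04 in the Prdm1 experiment. With no filter, edgeR's filterByExpr, and limma with a pseudocount of 1 or 0.1, Cd40lg gave -0.10, -0.06, -0.01 and -0.01 there, and Il6st 0.06, 0.04, 0.02 and 0.03 in the Bcl6 experiment. Leaving out each library moved Cd40lg between -0.81 and 0.02 in Bcl6+ over TIM-3+ TILs and between -0.20 and 0.38 in the Prdm1 experiment. It moved Icos between -0.16 and 0.03 in Bcl6+ over DN TILs, and Il6st between -0.04 and 0.10 in TIM-3+ over DN TILs and between -0.24 and 0.10 in the Bcl6 experiment. Of 33 values of members below the filter, 32 moved by less than the replicate spread and 1 by more. The cause was not tested.

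With total counts, 0 members were lower in Bcl6+ than in TIM-3+ TILs and 0 higher in TIM-3+ than in DN TILs. In Prdm1-overexpressing cells, genes called numbered 135, against 586 with DESeq2, 294 with total counts, 44 with no filter and 50 with filterByExpr, and DESeq2 called 1 member higher, Cd200. In Bcl6-overexpressing cells 2 members were higher with no filter and with filterByExpr, Il6ra being added.

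Same-numbered replicates deviated with r between 0.001 and 0.032 in TILs, 0.323 among Prdm1 and -0.064 among Bcl6 libraries, and the labels do not say that a number marks shared mice, so the numbers were not taken as pairs, although overexpressing and control cells were transferred together. With the replicate number as a block, 1659 genes were called in Prdm1-overexpressing cells, with 1 member higher, Cd200 (0.91, adjusted p = 3.4e-05), and TIM-3+ TILs had 0 members higher than DN TILs (Icos adjusted p = 0.051). The block changed no other call of a member.

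Leaving out each library gave 3120 to 3413 genes in Bcl6+ against TIM-3+ TILs, 736 to 1489 in Bcl6+ against DN, 1700 to 2943 in TIM-3+ against DN, 3 to 784 with Prdm1 overexpression and 3252 to 5232 with Bcl6 overexpression. Without replicate 1 or 2 of DN, Bcl6+ against DN gave 736 and 773 in place of 1383, and TIM-3+ against DN 1700 and 1761 in place of 2745. Members higher numbered 2 to 2, 1 to 2, 0 to 1, 0 to 1 and 1 to 1 in these comparisons, and members lower 0 to 1, 1 to 1, 1 to 3, 0 to 0 and 1 to 2. With 1 library left in a group, that library is assumed to vary like the others. Depth limits Il21, Maf, Il6ra and Ascl2, which had few counts in most libraries.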
